A study of Mus musculus with 2 samples.

Results

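Among 6241 single cells of mouse Peyer's patches with exactly 1 productive heavy chain, 64 carried 100 or more unique molecular identifiers (UMIs, tags that count captured transcripts) of that chain, and these are the high-UMI cells described here. They were chosen by the heavy-chain UMI count alone, of any constant gene: 37 of 3294 cells of the Cre+ library (1.12%, exact 95% interval 0.792 to 1.54) and 27 of 2947 cells of the Cre- library (0.916%, 0.605 to 1.33). Peyer's patches are lymphoid follicles of the small intestine. White blood cells were enriched on beads by their surface marker CD45 and pooled by genotype from 4 adult female mice each, and antigen receptor transcripts were amplified with a droplet 5' V(D)J kit. Mice of the Cre+ library were H2-Ab1 fl/fl; Villin:Cre+ and those of the Cre- library H2-Ab1 fl/fl; Villin:Cre-, so both carried the floxed MHC class II beta chain gene. The Villin promoter drives Cre in the intestinal epithelium, so that the gene is removed there and not in B cells. The series' design text writes Cre- for both genotypes, the sample labels do not, and H2-Ab1 was not measured. With 1 library per genotype there are no replicates, no test was made, intervals cover counting error only, and a difference between genotypes cannot be told apart from one between libraries. How many of the pooled mice gave high-UMI cells is not known from these files.

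B cells carry the antibody as a receptor on the surface and hold modest amounts of its transcript. Plasmablasts and plasma cells, into which activated B cells mature, raise heavy- and light-chain transcription together and secrete the antibody. In Peyer's patches, B cells activated by gut antigens switch the constant region from IgM and IgD to IgA or IgG, acquire mutations in germinal centres, and leave as precursors of the IgA plasma cells of the gut wall. The files hold receptor transcripts only, so markers such as the plasma-cell surface protein syndecan-1 were not available as a check, and the label of plasma-cell level rests on transcript counts.

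The high-UMI cell with the most heavy-chain UMIs of each isotype and library is shown by its heavy-chain CDR3, the loop where the V, D and J genes are joined. Each runs 5′ to 3′ from the codon of the first cysteine to that of the tryptophan, and capitals mark bases that differ from the commonest sequence of that J gene in the 9 bases before the last codon.

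Cre+ IgA, IGHV1-76, 2994 UMIs: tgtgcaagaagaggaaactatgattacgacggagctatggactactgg
Cre+ IgM, IGHV6-3, 4753 UMIs: tgcacagaccctccctggtttgGttTctgg
Cre+ IgG2b, IGHV1-69, 3081 UMIs: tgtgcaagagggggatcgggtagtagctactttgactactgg
Cre+ IgG3, IGHV1-7, 170 UMIs: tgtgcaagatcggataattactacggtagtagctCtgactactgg
Cre- IgA, IGHV1-85, 5322 UMIs: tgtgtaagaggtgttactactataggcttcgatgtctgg
Cre- IgM, IGHV1-76, 2910 UMIs: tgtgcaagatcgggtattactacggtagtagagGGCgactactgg
Cre- IgG2b, IGHV1-54, 7068 UMIs: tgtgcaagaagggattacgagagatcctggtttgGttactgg
Cre- IgG1, IGHV2-5, 177 UMIs: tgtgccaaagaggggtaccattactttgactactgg

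These 8 loops belong to 8 different rearrangements, and they run from 30 to 48 bases. Members with and without J mismatches occur among the brightest cells of both libraries.

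The values that chose the cells are given as a description. Heavy-chain UMIs ran from 100 to 4753 in the Cre+ library (median 612, quartiles 145 and 1485) and from 117 to 7068 in the Cre- library (median 989, quartiles 384 and 2275.5). The other cells had medians of 8 and 10. The high-UMI cells thus held 53.8% of the heavy-chain UMIs of the Cre+ cells (39912 of 74209) and 55.2% of those of the Cre- cells (44679 of 80958). Over all contigs, they held 43.0% and 51.6% of each library's UMIs while being 0.987% and 0.832% of its barcodes. The threshold cut through a thin tail rather than a gap in the Cre+ library. Just inside lay an IgG2b cell of IGHV9-1 at 100 UMIs, an IgG2b cell of IGHV1-59 at 101 and an IgA cell of IGHV2-2 at 103, and just outside lay cells at 99 (IgA, IGHV1-19), 96 (IgM, IGHV1-9) and 92 (IgM, IGHV2-2). In the Cre- library the nearest cells inside stood at 117 (IgG2b, IGHV1-81), 148 (IgM, IGHV1-55) and 177 (IgG1, IGHV2-5), and those outside at 97 (IgM, IGHV4-1), 96 (IgG2b, IGHV1-9) and 94 (IgM, IGHV9-2).

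Light-chain UMIs were not used in the choice and were also high. The main light chain had a median of 2509.5 UMIs in the 36 Cre+ cells that had one (117 to 9566) and of 4322 in the 27 Cre- cells (51 to 12518), against 29 in the cells below the threshold of either library. A light chain of 1000 UMIs or more was found in 23 and 21 high-UMI cells and in 0 of 3226 and 0 of 2862 cells below the threshold, where the highest values were 410 and 551. The high-UMI cells are split here at 300 heavy-chain UMIs, a level set after the values were seen. No wide gap lies there, with 283 UMIs the highest value under it and 330 the lowest above. The split uses the count that chose the cells, so it is a description. Of the 42 cells at 300 or more, 21 in each library, 40 had a light chain of at least 1000 UMIs, and the exceptions were a pair of IGHV5-17 cells described below. Of the 22 cells under 300, 16 Cre+ and 6 Cre-, only 4 did, all Cre+, and their median light chain had 318 UMIs. The cells under 300 are therefore closer in light-chain UMIs to the cells under the threshold, and they make up a larger count of the Cre+ than of the Cre- members.

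**Figure D1:**
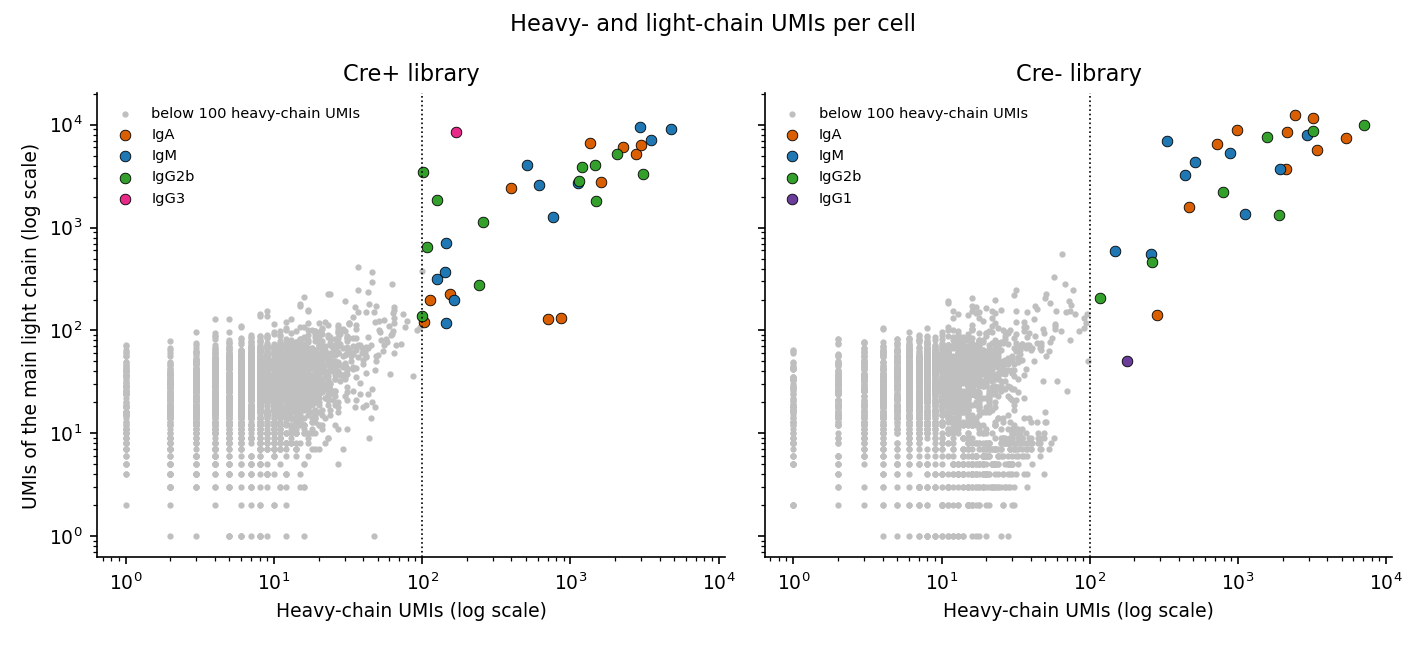
Heavy-chain UMIs (x axis, log scale) against UMIs of the main light chain (y axis, log scale) for every cell with both, in the Cre+ (left) and Cre- (right) library. Grey points are cells below 100 heavy-chain UMIs (dotted line) and coloured points are high-UMI cells by isotype. Most coloured points lie above 1000 light-chain UMIs, where no grey point lies, and a pair of Cre+ IgA cells at 703 and 859 heavy-chain UMIs sits low at 129 and 131.

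The ratio of light- to heavy-chain UMIs contains the heavy-chain count used in the choice, so it is given as a description. The median ratio of light- to heavy-chain UMIs was 2.44 in Cre+ (quartiles 1.43 and 4.27) and 2.72 in Cre- high-UMI cells (1.69 and 4.97), beside 3.40 and 3 in the cells below. Among the cells below, the median ratio fell with the heavy-chain count, from 4.88 and 5 under 10 UMIs to 2.31 and 1.93 at 10 to 99 UMIs. The Cre- cells below also include the 417 cells of the largest lineage, with a median ratio of 0.263. A few high-UMI cells lay far from the median of their library. The only IgG3 cell had 170 heavy- and 8502 light-chain UMIs, a ratio of 50.01. An IgG2b cell of IGHV1-59 had 101 and 3497, a ratio of 34.6, and a Cre- IgM cell of IGHV1-7 had 330 and 6879, a ratio of 20.8. All 3 had more light-chain UMIs than the median high-UMI cell of their library. The lowest ratios were those of the IGHV5-17 pair described below, at 0.153 and 0.183. Next came the IgG1 cell, with 177 heavy- and 51 light-chain UMIs (0.288), and a Cre- IgA cell of IGHV6-3 with 283 and 140 (0.495).

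Read depth moved with these counts. The 42 cells at 300 or more heavy-chain UMIs all had nearly the same number of reads per barcode, 86794 to 95445 in Cre+ and 90227 to 96175 in Cre-, although their UMIs over all contigs ran from 832 to 13745 and from 2477 to 17070. Reads per heavy-chain UMI consequently had a median of 18.7 and 10.1 in them, against 107.3 and 96.7 in the high-UMI cells under 300, and 109.6 and 99.4 in cells below the threshold. The reads per barcode of cells below the threshold had medians of 4330 and 4628.5 and did not pass 76559 and 72028. Whether this plateau affects the UMI values of the brightest cells was not tested, so their order is given as deposited.

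**Figure D2:**
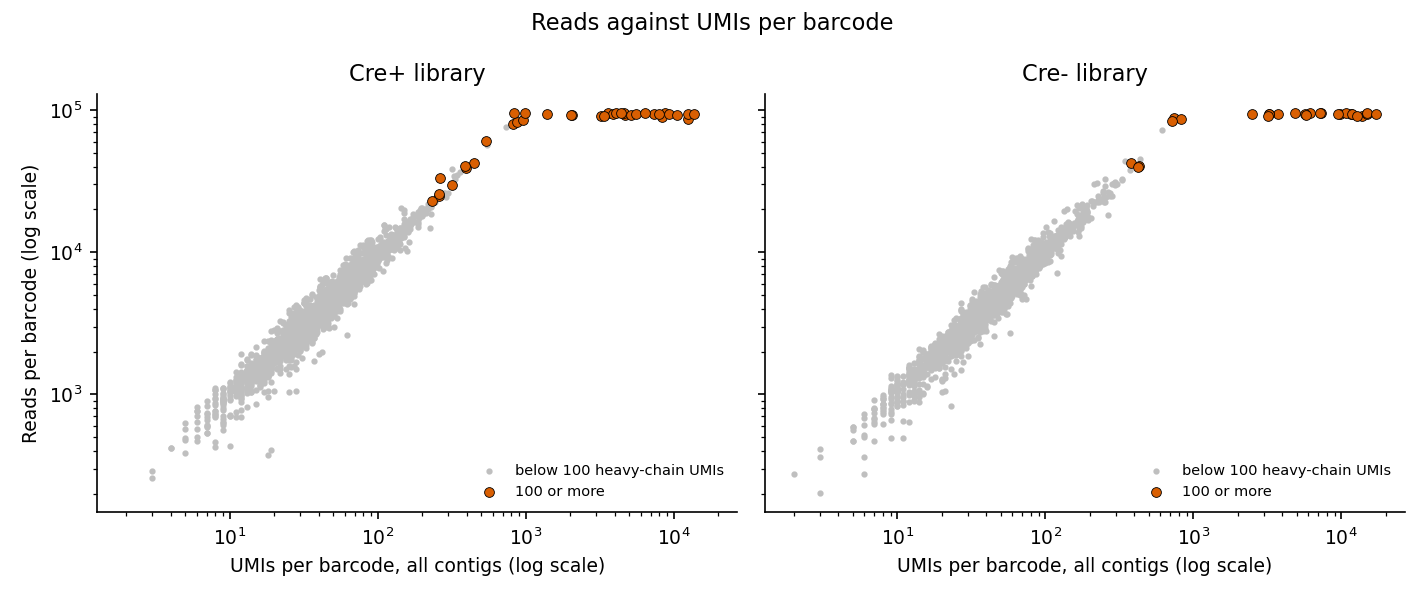
Reads per barcode (y axis, log scale) against UMIs per barcode over all contigs (x axis, log scale) in each library, with high-UMI cells in orange and other cells in grey. Reads rise with UMIs up to about the level of the brightest grey points and then stay flat, at 86794 to 96175 reads for cells of 300 or more heavy-chain UMIs.

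Signs of another cell in the same droplet could be read only in part, since the rule had already required exactly 1 productive heavy chain. T cell receptor contigs were found in 0 of the 64 high-UMI cells (up to 4.69% by 3 counts of the total). Below the threshold they were found in 130 of 3257 and 73 of 2920 barcodes, none of them productive. With 64 cells, a share as low as that below could not be told from 0. Barcodes with several productive heavy chains, left out by the rule, numbered 145 and 83, and their brightest chains had 40 and 33 UMIs, so 0 of them reached 100. More than 2 productive light chains occurred in 0 high-UMI cells, and exactly 2 in 3 of 37 Cre+ (8.11%, 1.70 to 21.9) and 2 of 27 Cre- cells (7.41%, 0.910 to 24.3), beside 8.75% and 7.29% below the threshold. The brightest of these 5 cells were an IgA cell of IGHV1-19, with IGKV1-117 at 6620 and IGKV19-93 at 4436 UMIs, and an IgG2b cell of IGHV14-1, with IGKV8-21 at 7536 and IGKV16-104 at 4760. The 10 barcodes present in both libraries included 0 high-UMI cells, and 0 high-UMI heavy CDR3s were found in the other library.

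IgA, the class secreted into the gut, IgM, and IgG2b, an IgG class, made up nearly all high-UMI cells in similar numbers. In the Cre+ library 12 of 37 were IgA, 12 IgM and 12 IgG2b (each 32.4%, 18.0 to 49.8), with 1 IgG3 cell. In the Cre- library 10 of 27 were IgA (37.0%, 19.4 to 57.6), 9 IgM (33.3%, 16.5 to 54.0) and 7 IgG2b (25.9%, 11.1 to 46.3), with 1 IgG1 cell. Switched classes together came to 25 of 37 (67.6%, 50.2 to 82.0) and 18 of 27 (66.7%, 46.0 to 83.5), and the intervals of the libraries overlapped for each class. IgD, the class that naive B cells carry beside IgM, was found in 0 of 64 (up to 4.69%). On chromosome 12 of GRCm38 the constant genes of these classes are Igha at 113256204 to 113260236, Ighg2b at 113304314 to 113307933 and Ighm at 113418826 to 113422730.

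Below the threshold the make-up differed. IgM was found in 59.1% of Cre+ and 52.7% of Cre- cells and IgD in 30.4% and 24.8%, while IgG2b made up 2.72% and 2.96%. IgA made up 6.02% and 18.8%, or 4.53% and 5.25% once each library's largest lineage was left out (a lineage is a set of cells with the same IGHV and IGHJ gene and CDR3 length and 85% or more identical CDR3 bases). The members' IgG2b and IgA intervals lay above these shares in both libraries, narrowly so for Cre- IgA, where 18.8% stood under a lower bound of 19.4%. Seen the other way, 12 of all 100 Cre+ IgG2b cells were high-UMI cells (interval 6.36 to 20.02%) and 7 of 93 Cre- ones (7.53%, 3.08 to 14.9). For IgA it was 5.80% (12 of 207, 3.03 to 9.91) and 1.80% (10 of 557, 0.864 to 3.28), and 6.49% and 7.09% without the largest lineages. For IgM it was 0.623% (12 of 1925) and 0.584% (9 of 1542), and for IgD 0 of 986 and 0 of 723, whose highest cells had 65 and 37 UMIs. Among IgG1 cells it was 0 of 55 in Cre+, the highest at 63 UMIs, and 1 of 22 in Cre-.

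**Figure D3:**
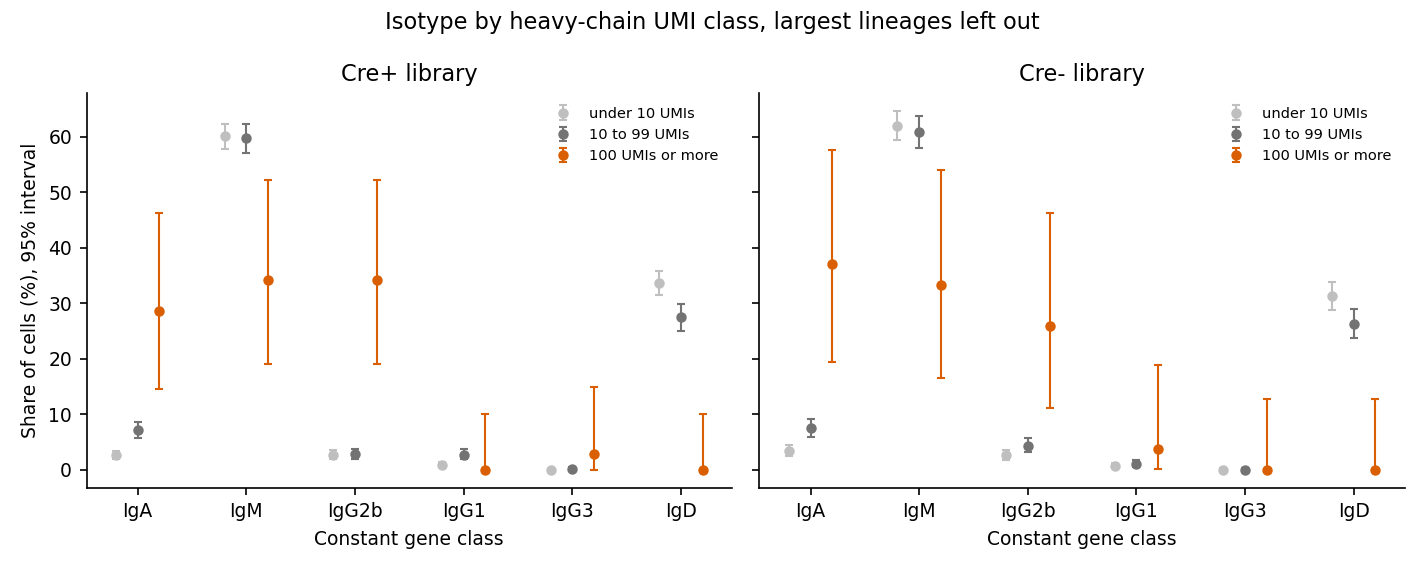
Share of cells (y axis, percent, with exact 95% intervals) of each constant gene class in cells with under 10 (light grey), 10 to 99 (dark grey) and 100 or more (orange) heavy-chain UMIs, per library, with the largest lineage of each left out. IgG2b and IgA take larger and IgM and IgD smaller shares in the orange class, and IgD is at 0 there.

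Levels overlapped widely between classes. IgA high-UMI cells had a median of 781 heavy-chain UMIs in Cre+ (103 to 2994) and 2119 in Cre- (283 to 5322), IgG2b cells 704 (100 to 3081) and 1581 (117 to 7068), and IgM cells 562.5 (126 to 4753) and 512 (148 to 2910). The highest cell was IgM in the Cre+ and IgG2b in the Cre- library, so no class was uniformly brightest.

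V genes were diverse. The 64 high-UMI cells used 38 IGHV genes, 21 of them in 1 cell and 13 in 2, and 63 of their 64 CDR3 rearrangements were distinct in bases. Only 4 IGHV genes reached 3 cells. IGHV6-3, at 114391712 to 114392010 of chromosome 12 (GRCm38), was used by 7 of 64 (10.9%, 4.51 to 21.2), 5 Cre+ and 2 Cre-, against 2.44% of the cells below the threshold and 4.18% of the switched ones among them, largest lineages left out. By library, the switched share below was 4.86% in Cre+ and 3.36% in Cre-. Each lay inside the interval of the high-UMI cells (4.54 to 28.8 and 0.910 to 24.3). IGHV1-19, at 114708648 to 114708941, was used by 4 cells (6.25%, 1.73 to 15.2), all Cre+ and 3 of them IgA, against 1.23% of cells below and 3.04% of the switched ones, the latter inside the interval. IGHV1-26 and IGHV1-76 were used by 3 cells each (4.69%, 0.977 to 13.1). Below the threshold, largest lineages left out, they stood at 6.42% and 1.56%, both inside the interval, so IGHV1-26 showed no excess. These genes were named for their counts, so a higher share is no test.

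By family, IGHV6 was used by 9 of 64 (14.1%, 6.64 to 25.02) against 3.74% of cells below the threshold without the largest lineages. It stood at 6 of 37 in Cre+ (16.2%, 6.19 to 32.0) against 3.66% and at 3 of 27 in Cre- (11.1%, 2.35 to 29.2) against 3.84%, so the Cre- interval includes the share below. Most high-UMI cells are switched and most cells below are not. Among switched cells below, IGHV6 stood at 5.21% in Cre+ (2.94 to 8.44) and 5.04% in Cre- (2.63 to 8.64). Both of these intervals overlap those of the high-UMI cells. By class, IGHV6 was used by 4 of 21 IgM high-UMI cells (interval 5.45 to 41.9) against 4.25% of IgM cells below. It was used by 3 of 19 IgG2b cells (3.38 to 39.6) against 5.75% and by 2 of 22 IgA cells (1.12 to 29.2) against 5.82%, both inside the intervals. The common IGHV1 family had 37 of 64 (57.8%, 44.8 to 70.1) against 62.9% below, largest lineages left out. IGHV3, IGHV8 and IGHV4 had 0 of 64 (up to 4.69%), against 4.72%, 3.83% and 0.79% below on the same terms. With the largest lineages kept, IGHV4 stood at 7.48% below. At this number of cells an absence of IGHV8, or of IGHV4 outside the largest lineage, was not detectable. IGHV3 stood at the edge of what was. IGHJ2 was used by 26 cells, IGHJ3 by 19, IGHJ4 by 12 and IGHJ1 by 7 (40.6%, 29.7%, 18.8% and 10.9%). Below, largest lineages left out, these stood at 36.3%, 21.6%, 24.1% and 18.0%, each inside the members' interval over both libraries together. By library, IGHJ1 was used by 1 of 37 Cre+ high-UMI cells (2.70%, 0.0684 to 14.2) against 17.4% below, outside the interval. In Cre- it was used by 6 of 27 (22.2%, 8.62 to 42.3) against 18.8%, inside it. The other J genes stayed inside in each library.

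**Figure D4:**
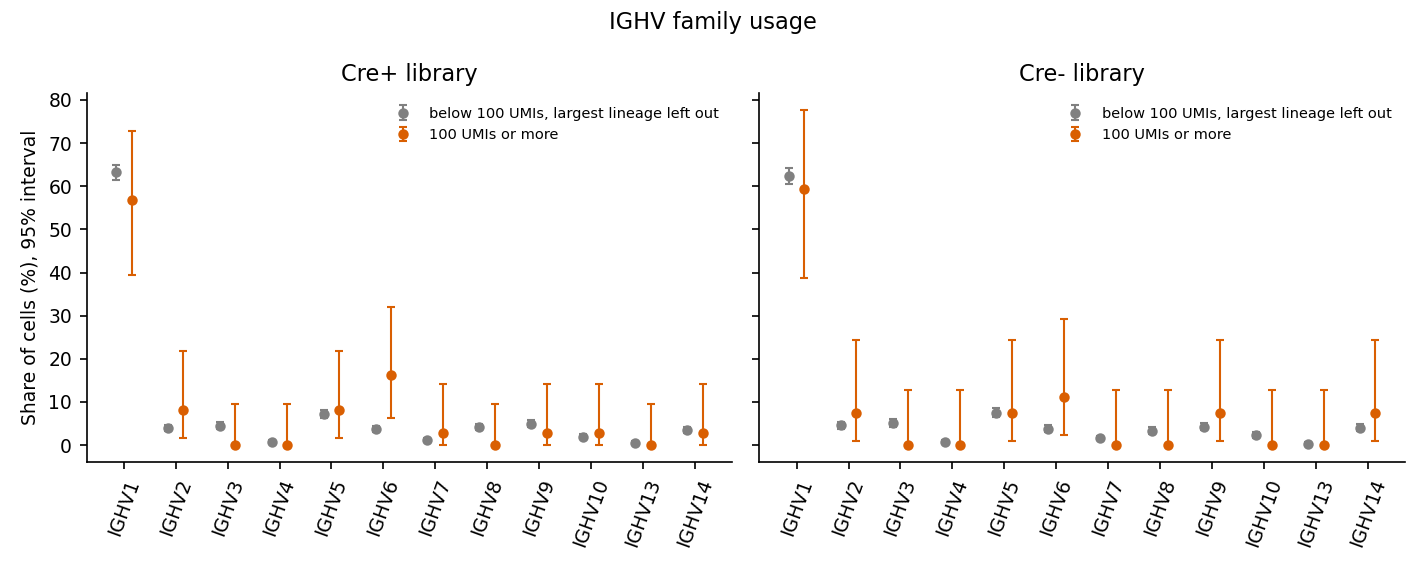
Share of cells (y axis, percent, with exact 95% intervals) using each IGHV family, in high-UMI cells (orange) and in cells below the threshold without the largest lineage (grey), per library. IGHV6 stands at 16.2% and 11.1% in the high-UMI cells against 3.66% and 3.84%, and in Cre+ its intervals do not overlap. The grey points take all classes together. Switched Cre+ cells below, not drawn, stood at 5.21% (2.94 to 8.44), which overlaps the interval of the Cre+ high-UMI cells (6.19 to 32.0).

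Light chains were nearly all kappa. Lambda was found in 1 of 36 Cre+ cells (IGLV3) and 1 of 27 Cre- cells (IGLV1), beside 4.59% and 4.26% of cells below the threshold. The 63 high-UMI cells with a light chain used 38 light V genes. IGKV6-23, at 70260409 to 70260933 of chromosome 6 (GRCm38), was the most frequent with 5 cells, all Cre+, at 13.9% of 36 (4.67 to 29.5) against 3.13% of the Cre+ cells below without the largest lineage and 0 of 27 in Cre-. IGKV1-110 and IGKV8-24 followed with 4 cells each, and IGKV10-96, IGKV2-109, IGKV2-137 and IGKV4-72 with 3. The IGKV8 family had 10 of 63 (15.9%, 7.88 to 27.3) against 6.85% of cells below without the largest lineages, and IGKV3 had 0 of 63 (up to 4.76%) against 8.16% below. The 1 cell without a productive light chain, an IgA cell of IGHV2-9-1 at 133 UMIs, had a nonproductive IGKV9-124 contig with 81 UMIs. Nonproductive lambda contigs stood beside a productive kappa chain in 4 of 27 Cre- and 0 of 37 Cre+ high-UMI cells, the brightest an IGLV2 contig at 1014 UMIs in an IgA cell of IGHV1-53. The like share of the cells below is not given, so these counts do not show a trait of the high-UMI cells.

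CDR3 length and J mismatches were read inside the CDR3. Median CDR3 length was 12 amino acids in Cre+ (interval of the median 11 to 14) and 14 in Cre- high-UMI cells (12 to 15), against 14 below the threshold in both. IgM high-UMI cells had a median of 11 in Cre+ (10 to 14, n = 12) and 14 in Cre- (10 to 17, n = 9), so the shorter Cre+ median was not seen in Cre-. A base differing from the commonest J sequence in the 9 bases before the last codon, a proxy for mutation to which trimming at the joint also adds, was found in 15 of 37 Cre+ (40.5%, 24.8 to 57.9) and 8 of 27 Cre- cells (29.6%, 13.8 to 50.2). Outside the largest lineages, the share was 15.3% in unswitched cells below the threshold, or 17.5% when weighted to the members' J genes, and 37.5% in switched ones. With those lineages kept, the switched share was 19.8%. By class it was 9 of 22 IgA (40.9%), 6 of 19 IgG2b (31.6%) and 7 of 21 IgM high-UMI cells. The IgA and IgG2b cells below, outside the largest lineages, stood at 41.5% and 36.2%, so neither class exceeded its background. The IgM value, 33.3% (14.6 to 57.0), stood against 15.1% in IgM cells below, again outside the largest lineages. Unswitched cells below stood at 18.6% when weighted to the J genes of the IgM members. Both shares lie inside the interval of the IgM value, the first near its lower bound. A separate readout was the light-chain joint. A joint carried by 2 or more lineages, used as a proxy for joints without mutation, was found in 91.8% of unswitched and 43.5% of switched cells below the threshold, outside the largest lineages. Among IgM high-UMI cells it was found in 11 of 12 in Cre+ and 6 of 9 in Cre-, against 91.4% and 91.5% of IgM cells below. Among IgG2b high-UMI cells the counts were 7 of 12 and 6 of 7, against 52.4% and 48.2%. The IgA cells went opposite ways in the libraries, with 6 of 11 in Cre+ against 31.2% below and 2 of 10 in Cre- against 37.9%, and both intervals (23.4 to 83.3 and 2.52 to 55.6) include the share below.

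High-UMI cells rarely shared a lineage with each other. By lineage, the only high-UMI cells to share one were 2 IgA cells of IGHV5-17 and IGHJ4 in Cre+ (2 of 37, 5.41%, 0.661 to 18.2), and 0 of 27 did in Cre- (up to 11.1%). In the authors' clonotypes 31 of 37 and 24 of 27 were in a clonotype of a single barcode. A lineage of 2 or more cells of any level held 13 of 37 Cre+ and 4 of 27 Cre- high-UMI cells. The like shares of the other cells are not given for the clonotype and lineage counts, so these do not show whether high-UMI cells were less clonal. Sharing of identical CDR3s is set beside its background further on. The big IgA lineage of the Cre- library, IGHV4-1 with 417 cells, contained 0 high-UMI cells (exact upper bound 0.881%), and its highest cell had 57 UMIs. The largest lineage of each library thus held 2 and 0 of its high-UMI cells.

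The IGHV5-17 pair was unlike the other high-UMI cells. It belonged to the largest Cre+ lineage, in which 62 of 64 cells carried the same heavy CDR3, and its heavy and light CDR3s are shown because this is the only clone to cross the threshold more than once.

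IGHV5-17 heavy CDR3: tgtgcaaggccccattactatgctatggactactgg
IGHV5-17 light CDR3, IGKV4-72: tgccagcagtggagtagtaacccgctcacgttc

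The pair had 703 and 859 heavy-chain UMIs but 129 and 131 light-chain UMIs, ratios of 0.183 and 0.153. In the rest of the lineage the highest cell had 31 and the median 8 heavy-chain UMIs, with a median ratio of 0.882. The same CDR3 was found in 75 further barcodes below the threshold, 15 of which held several productive heavy chains. Of the 60 with a single heavy chain, 46 carried the pair's light CDR3 and 14 another light CDR3 or none, and 51 were IgA. Of the 150 barcode pairs formed by these 2 cells and the others, 0 were alike in sequence.

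Whether cells of low UMI count shared the CDR3 of a high-UMI cell depended on the cell. At least 1 such barcode existed for 10 of 37 Cre+ (27.03%, 13.8 to 44.1) and 4 of 27 Cre- high-UMI cells (14.8%, 4.19 to 33.7). Outside the largest lineage, 8 and 4 high-UMI cells had 15 such partners. As a background outside the largest lineages, 2.57% (Cre+) and 1.48% (Cre-) of the cells below the threshold shared their CDR3 with another cell of the library, and 21.2% and 12.6% of the switched ones. With the largest lineages kept, these shares were 4.36% and 15.5%, and 33.2% and 68.2% of the switched cells.

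The barcodes of 7 of these 15 partners resembled that of the high-UMI cell, with the same first 8 or last 8 of 16 bases or an edit distance of 2 or less. They are shown with the shared 8 bases in capitals, the high-UMI cell first. These are droplet tags, not genome sequence.

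Cre+ IgM IGHV6-3, 4753 UMIs: CGATGTACaagcgagt
its partner, 3 UMIs: CGATGTACaagcgatg
Cre+ IgG2b IGHV1-78, 1198 UMIs: ctcctagtCGCTGATA
its partner, 2 UMIs: ttgactttCGCTGATA
Cre+ IgM IGHV1-19, 1127 UMIs: cggagtcagtcaagcg
its partner, 4 UMIs: cgggtcagtcaagcga
Cre- IgG2b IGHV1-54, 7068 UMIs: gatcagttCCCTTGCA
its first partner, 8 UMIs: attggactCCCTTGCA
its other partner, 11 UMIs: tgagcattCCCTTGCA
Cre- IgG2b IGHV14-1, 1581 UMIs: gggcactgTAATCGTC
its partner, 4 UMIs: cagctaagTAATCGTC
Cre- IgM IGHV1-7, 330 UMIs: TTGACTTTcctttaca
its partner, 1 UMI: TTGACTTTcatgtggt

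The IGHV1-19 pair shares no run of 8 bases at an end but has an edit distance of 2. All 7 carried the high-UMI cell's light CDR3 too, with 1 to 11 heavy-chain UMIs. For comparison, a shared first or last 8 bases was found in 0.117% and 0.119% of all barcode pairs of each library, and likeness by any of these rules in 0 of 212 Cre+ and 1 of 20 Cre- pairs of cells below the threshold with the same CDR3 outside the largest lineages. Within the largest lineages it was found in 1 of 2016 and 109 of 86736 pairs. The IGHV1-7 cell also had 3 light-only barcodes of like sequence that carried its light CDR3, at 10 to 23 UMIs. Light-only barcodes that shared a light CDR3 with a high-UMI cell numbered 13 in Cre- and 31 in Cre+. Only these 3 in Cre- and 0 in Cre+ were alike in barcode. Whether the 7 alike partners are separate cells was not tested. Without them, 18.9% of Cre+ and 3.70% of Cre- high-UMI cells had a partner.

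The other 8 partners had unlike barcodes and belonged to 6 high-UMI cells. An IgA cell of IGHV1-19 at 1355 UMIs had 2 IgA partners at 20 and 99 UMIs with the same IGKV1-117 light CDR3, so 1 rearrangement spanned the threshold with no likeness of barcodes. An IgA cell of IGHV6-3 at 155 UMIs had 2 IgA partners at 22 and 23 UMIs, whose light CDR3s differed from its own at T3C, T22C and C26T, counted from 1 at the first base of the light CDR3. An IgA cell of IGHV2-2 at 103 UMIs had a partner at 2 UMIs with the light difference A19G. An IgG2b cell of IGHV1-81 at 117 UMIs, in Cre-, had a partner at 7 UMIs that was IgA, with the light difference G13A. An IgA cell of IGHV10-3 at 2757 UMIs had a partner at 1 UMI that carried the same IGKV2-109 light CDR3 at 13 UMIs beside a main IGKV1-110 chain at 49. The last, an IgM cell of IGHV1-26 at 126 UMIs, had a partner at 3 UMIs with another light V gene. Of these 8 partners 3 carried the light CDR3 of the high-UMI cell.

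**Figure D5:**
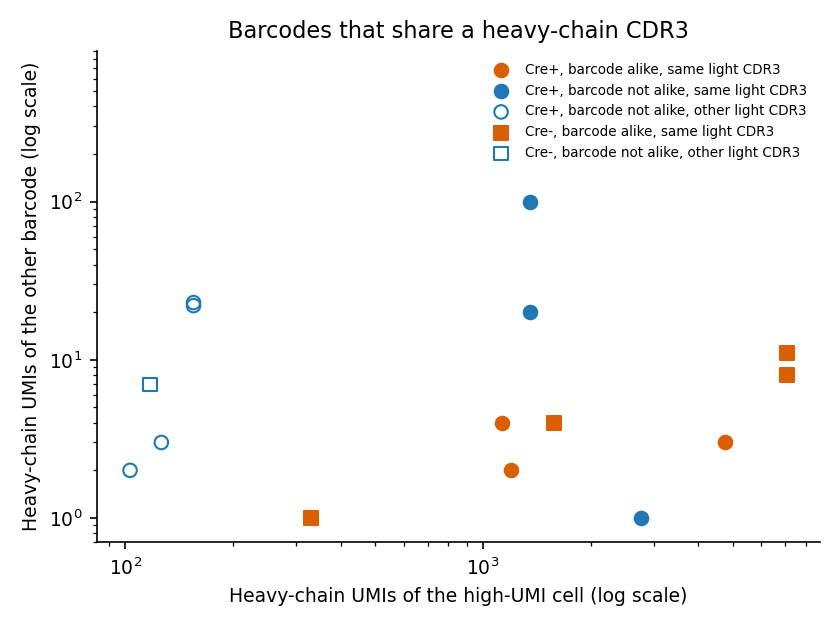
Heavy-chain UMIs of each high-UMI cell (x axis, log scale) against those of the barcode below the threshold that shares its heavy CDR3 (y axis, log scale), outside the largest lineages. Orange marks barcodes alike, blue unlike, circles Cre+, squares Cre-, and filled symbols the same light CDR3. The 7 orange partners have 1 to 11 UMIs and the blue ones 1 to 99.

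Close but not identical relatives, with the same IGHV, IGHJ and CDR3 length, were found below the threshold, outside the largest lineage, for 5 Cre+ high-UMI cells. The ones with matching light V genes are shown in pairs, with the high-UMI cell first and the differing bases in capitals.

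IGHV1-19 IgA, 113 UMIs: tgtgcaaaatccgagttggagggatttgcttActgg
its IgA relative, 8 UMIs: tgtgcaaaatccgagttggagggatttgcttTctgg
IGHV10-3 IgA, 2757 UMIs: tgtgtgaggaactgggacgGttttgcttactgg
its IgA relative, 14 UMIs: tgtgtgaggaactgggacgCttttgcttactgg
IGHV1-39 IgG2b, 241 UMIs: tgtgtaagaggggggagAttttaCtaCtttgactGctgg
its IgG2b relative, 23 UMIs: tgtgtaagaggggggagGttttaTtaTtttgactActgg
IGHV6-3 IgM, 4753 UMIs: tgcacagacccTccctggtttGGttTctgg
its IgA relative, 26 UMIs: tgcacagacccCccctggtttCCttActgg

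Counted from 1 at the first base of the heavy CDR3, the first pair differs at A32T with identical light CDR3s. The second pair differs at G20C, and at T15A in the light CDR3. The IGHV1-39 pair differs at A18G, C24T, C27T and G35A, and at A14G and A17G in the light CDR3, and a further IgG2b relative at 20 UMIs differs at A18G, C27T, T34C and G35A. The IGHV6-3 pair differs at T12C, G22C, G23C and T26A, and its IGKV2-109 light CDR3s at 4 bases; the heavy CDR3s are 86.7% identical, near the 85% limit of the lineage rule. The remaining relative, of an IgM cell of IGHV1-26 at 612 UMIs, had another light V gene. In the Cre- library 0 such relatives were found.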

How the data were processed

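Contig and clonotype tables of 2 libraries were used. Per the submitters' processing notes, Cell Ranger and GRCm38 were used, with no version of Cell Ranger given in these sources. The contig tables hold the count of reads and UMIs per contig, as deposited by the authors and per the file headers, and the clonotype tables the authors' count of barcodes per clonotype, which matched a recount for 3558 of 3558 and 2746 of 2746 clonotypes. Counts were not normalised. Libraries held 355258 (Cre+) and 355985 (Cre-) UMIs. No doublet caller was run; barcodes with several heavy chains were left out.

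A heavy chain was a distinct productive IGH CDR3, and the light chain the productive one with the most UMIs. Lineages were joined by single linkage. Intervals of shares are Clopper-Pearson, and a count of 0 is given with 3 counts of the total. The J comparison used unswitched cells below the threshold. The named-gene rule took all constant genes and IGHV families, V genes in 3 or more high-UMI cells, lineages with 2 or more, the top cell per isotype and library, cells with partners and the 3 cells on each side of the threshold. Extreme ratios, cells with 2 light chains, relatives and light families were chosen after their values were seen. Members and lists were chosen with earlier results of these data known. V gene coordinates come from RefSeq (GRCm38.p6), with 76 of 76 names matched. Python 3.11.15, pandas 2.3.3 and SciPy 1.17.1 were used, and the steps were tested on simulated data. Alternatives were other UMI thresholds, barcode rules, identity levels and J windows.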

Additional observations from a re-analysis of the deposited data

Results flagged for a closer look

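In the Cre+ library 2 of 286 barcodes without a productive heavy chain had a light chain of 500 UMIs or more, a level otherwise met by high-UMI cells and by 1 cell below the threshold. They carried IGKV4-59 at 1302 UMIs and IGKV9-120 at 1911 UMIs, and the next highest such barcode had 317. In the Cre- library 0 of 185 reached 500, the highest being 157. These barcodes lie outside the comparisons above because no heavy chain was available to class them. Whether their heavy chain was missed was not tested.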

How the results depend on the processing

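Of 76 alternatives over 16 results, 66 stayed within the limits set for each and 10 moved. The results are counts, shares and medians without a direction, so none could reverse. Some of the 66 could not have moved, since the setting left the same high-UMI cells, as given below. The number of high-UMI cells moved with the threshold: at 50 UMIs there were 69 Cre+ (2.09%) and 64 Cre- cells (2.17%), and at 200 UMIs 23 Cre+ cells (0.698%). The J mismatch share was 24.3% in Cre+ with 6 bases, and 59.5% in Cre+ and 63.0% in Cre- with 12 bases. Without partners of alike barcode, the share of Cre- high-UMI cells with a partner was 3.70%. The causes were not tested. No paired analysis was possible because each genotype has 1 library. With 37 and 27 cells, a class or gene found in 0 of them could still be at 8.11% or 11.1%. Leaving out the largest lineage or counting each lineage and isotype once kept the Cre+ IgA and IgM shares within their intervals. In Cre- both settings left the same 27 cells, and adding barcodes of several heavy chains changed the high-UMI cells of neither library. Mutation was read only in the CDR3, since V sequences were not used here.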
